A study of Mus musculus with 6 samples.

Results

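The genes described here are receptors for the steroid hormones, for the gonadotropins and for the related ovarian hormones prolactin and prostaglandin F2 alpha. They were taken by symbol, as all probe sets annotated to exactly 1 of 9 genes, which were Esr1, Esr2, Pgr, Nr3c1, Pgrmc1, Fshr, Lhcgr, Prlr and Ptgfr. The annotation used here listed 20 such probe sets for 7 genes, out of 45037 probe sets and 18193 genes. No probe set was listed under Lhcgr or Prlr, and these 2 receptors were not analysed here. The cells were primary ovarian surface epithelium, a simple epithelium on the outside of the ovary, from virgin FVB/N females of 8 weeks. They were cultured for 24 hours, stained for aldehyde dehydrogenase (ALDH) activity with ALDEFLUOR and sorted into ALDH-positive and ALDH-negative cells, and the labels name no cell type marker in the sort. Each of 3 pools of 10 mice gave 1 Affymetrix Mouse Genome 430 2.0 array of each fraction, so there were 3 arrays in each group and 6 in all. The labels name no transgene or drug treatment of these cells; unstained cells and cells given the ALDH inhibitor DEAB served as staining controls. Each fraction is thus a pool of many animals after a day in culture, with whole-transcriptome amplified cDNA.

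Steroid hormones act mainly through nuclear receptors, which bind DNA once they hold their ligand and change the transcription of target genes. Follicle-stimulating hormone acts on granulosa cells through a receptor at the cell surface that raises cyclic AMP, and prostaglandin F2 alpha acts on luteal cells through a receptor coupled to phospholipase C. The surface epithelium is known to carry estrogen and progesterone receptors, and it is ruptured and repaired at each ovulation, when these hormones change around it.

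Each value below is a log2 signal after quantile normalization, and each difference is ALDH-positive minus ALDH-negative cells of the same pool. Signals of different probe sets depend on the probes as well as on the RNA, so levels were compared between arrays and never between genes. A probe set was counted as above background on an array when it exceeded the 95th percentile of 77 probe sets of olfactory and vomeronasal receptors on that array, genes of the sensory neurons of the nose. In sorted bulk samples, fewer cells of a type and less RNA per cell cannot be told apart.

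One array, the ALDH-negative one of pool 2, was unlike the rest. It correlated with the other arrays at 0.558 to 0.679 across probe sets, while the other 5 correlated with each other at 0.85 to 0.974. On it 15.8% of all probe sets exceeded the background level, against 45.3% to 58.3% on the other arrays, and the level itself was 5.91 against 2.65 to 3.42. Every mean over 3 pools below includes it, and is given with the 3 pool differences, the value without pool 2 or both. Values without pool 2 rest on pools 1 and 3, and the pool 3 arrays also differed from the others. They correlated with the arrays of pool 1 and the ALDH-positive one of pool 2 at 0.85 to 0.882. Those arrays correlated with each other at 0.957 to 0.974. Between its 3′ and 5′ control probe sets, Gapdh differed by 3.59 and 5.30 in pool 3 and by 0.90 to 2.15 elsewhere, as deposited. For the actin gene Actb this difference was smaller, at 0.98 and 0.78 in pool 3 and -0.28 to 0.22 elsewhere. The 3′ signal of Actb was 5.03 on the ALDH-negative array of pool 2 and 9.56 to 11.04 on the others. Of the enzymes that the stain can report, the retinaldehyde dehydrogenase Aldh1a2 read 2.86, 2.09 and 2.87 in the ALDH-negative and 7.97, 7.73 and 7.64 in the ALDH-positive cells of pools 1 to 3. Aldh1a1, another, was also bright in ALDH-negative cells, at 8.85, 2.15 and 9.39 against 9.60, 9.08 and 10.00. All 12 listed genes of surface epithelium and mesothelium were above background on each ALDH-positive array, and 10, 1 and 9 of them on the ALDH-negative arrays. Of the 8 listed theca, interstitial and luteal genes with a probe set, 7, 2 and 7 were above background on the ALDH-negative and 6, 7 and 6 on the ALDH-positive arrays. Cyp17a1, the enzyme that theca cells need for androgen synthesis, was above it on none and read 1.30 to 2.82. Cyp11a1, which cleaves the cholesterol side chain, read 11.43, 4.09 and 8.42 in ALDH-negative cells against 10.69, 10.68 and 7.28 in ALDH-positive cells.

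Of the 7 receptor genes, the nuclear receptors Esr1, Esr2 and Nr3c1 and the membrane-associated protein Pgrmc1 had a probe set above background on all 5 arrays other than the ALDH-negative array of pool 2. Ptgfr was above background on 3 arrays and Fshr on 1, while Pgr was above it on none. On the arrays of pools 1 to 3 the number of receptor genes above background was 6, 1 and 5 in ALDH-negative cells against 4, 5 and 4 in ALDH-positive cells. By probe set, 13, 1 and 10 of the 20 passed in ALDH-negative cells and 8, 9 and 6 in ALDH-positive cells. Of all probe sets, 58.3%, 15.8% and 51.1% passed on the ALDH-negative and 51.3%, 52% and 45.3% on the ALDH-positive arrays. On the ALDH-negative array of pool 2 Nr3c1 alone passed, with 1 of its 6 probe sets. Against a stricter level, the 99th percentile of the same nasal receptors, Esr1 was above background on no ALDH-negative array and on 2 ALDH-positive ones, Esr2 on 2 of each and Ptgfr on 1 of each, Fshr on none, and Pgrmc1 and Nr3c1 each on 5 arrays. The number of a gene's probe sets that passed the level used here varied: 3 to 5 of 6 for Nr3c1 on the other arrays, but 1 or 2 of 3 for Esr1.

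**Figure D1:**
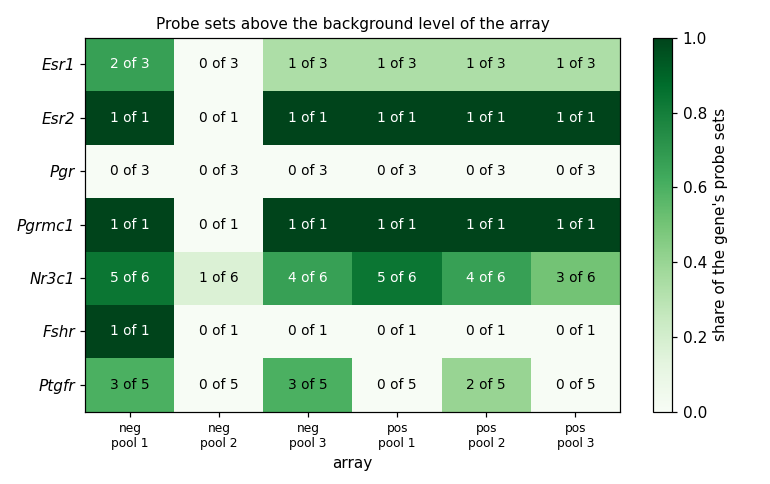
Number of each receptor gene's probe sets above the background level of the array (rows: genes; columns: the 6 arrays, ALDH-negative then ALDH-positive; colour: share of the gene's probe sets). Esr2 and Pgrmc1 are above background on every array but the ALDH-negative array of pool 2, Ptgfr on 3 arrays, Fshr on 1 and Pgr on none.

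**Figure D2:**
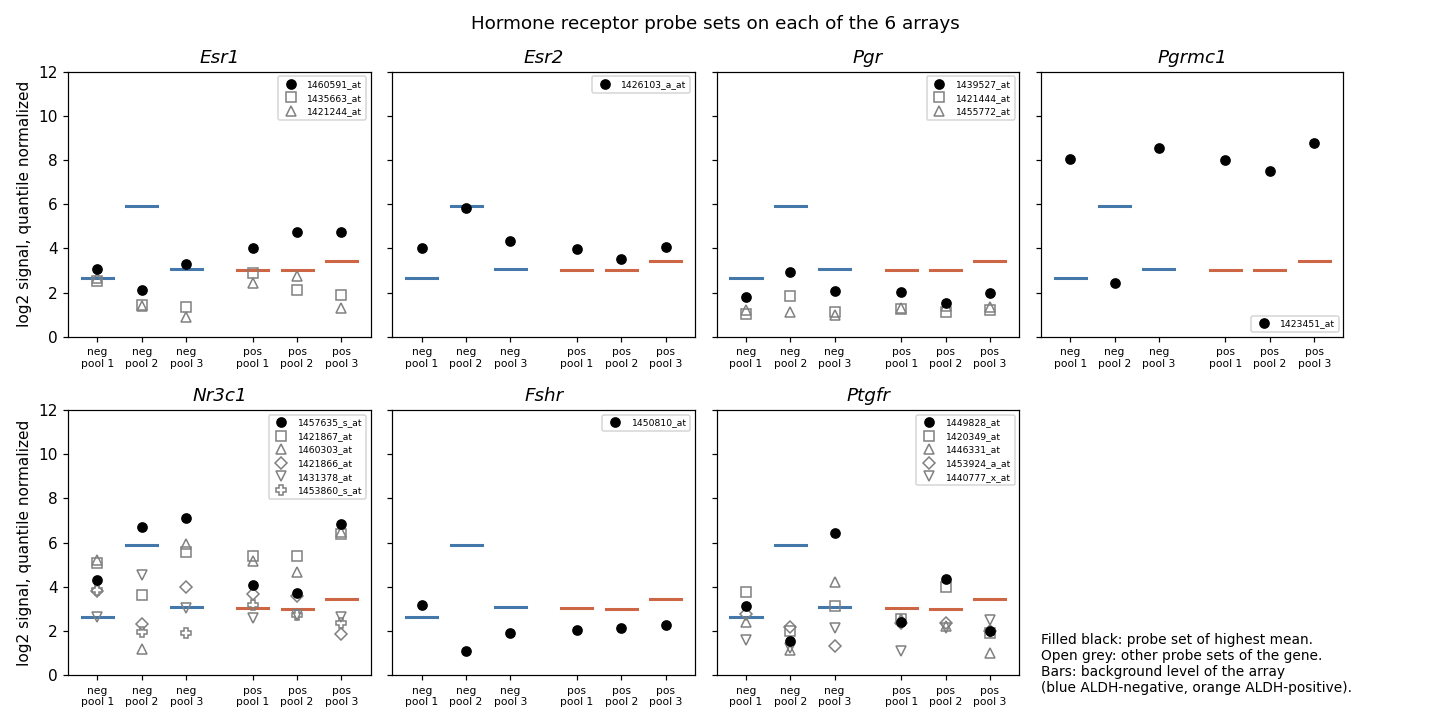
Quantile normalized log2 signal of all 20 receptor probe sets (vertical axis) on each array (horizontal axis), a panel for each gene; filled symbols are the probe set of highest mean, open symbols the others, and coloured bars the background level of the array. The background bar of the ALDH-negative array of pool 2 stands at 5.91, above all but 1 of the receptor probe sets there.

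The 250 bases before the start of 5 of the 7 genes are given from RefSeq on the mouse build GRCm38.p6, 5′ to 3′ on the gene's strand. They lie at chr10:4611739-4611988 on the plus strand for Esr1 and chr12:76177260-76177509 on the minus strand for Esr2. The other regions are chrX:36597943-36598192 on the plus strand for Pgrmc1, chr17:89200676-89200925 on the minus strand for Fshr and chr3:151837529-151837778 on the minus strand for Ptgfr. Capitals mark any match, on either strand, to the E-box CACGTG, the GC box GGGCGG, the nuclear receptor half-site AGGTCA or the TATA box TATAAA. No match overlapped another. Nr3c1 and Pgr are not shown, nor is a second listed promoter of Esr1, at chr10:4709908-4710157 with 7 CpG dinucleotides.
Esr1: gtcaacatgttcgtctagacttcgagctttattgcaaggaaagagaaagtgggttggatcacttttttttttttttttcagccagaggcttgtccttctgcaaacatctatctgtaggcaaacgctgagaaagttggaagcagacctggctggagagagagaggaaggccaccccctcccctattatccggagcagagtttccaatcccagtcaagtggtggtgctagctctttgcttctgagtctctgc
Esr2: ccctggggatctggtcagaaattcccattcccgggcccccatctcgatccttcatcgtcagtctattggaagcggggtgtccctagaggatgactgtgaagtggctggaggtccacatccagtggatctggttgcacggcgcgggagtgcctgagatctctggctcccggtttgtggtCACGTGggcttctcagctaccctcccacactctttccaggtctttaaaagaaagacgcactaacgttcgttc
Pgrmc1: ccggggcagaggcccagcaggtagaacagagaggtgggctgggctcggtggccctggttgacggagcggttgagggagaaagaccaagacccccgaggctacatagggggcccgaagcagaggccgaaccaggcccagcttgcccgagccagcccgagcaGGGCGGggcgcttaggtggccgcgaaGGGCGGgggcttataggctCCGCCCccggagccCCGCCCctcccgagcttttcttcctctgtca
Fshr: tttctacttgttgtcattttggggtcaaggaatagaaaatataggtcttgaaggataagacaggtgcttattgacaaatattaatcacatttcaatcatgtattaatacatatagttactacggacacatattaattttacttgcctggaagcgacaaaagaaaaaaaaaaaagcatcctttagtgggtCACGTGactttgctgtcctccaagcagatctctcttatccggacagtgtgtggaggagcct
Ptgfr: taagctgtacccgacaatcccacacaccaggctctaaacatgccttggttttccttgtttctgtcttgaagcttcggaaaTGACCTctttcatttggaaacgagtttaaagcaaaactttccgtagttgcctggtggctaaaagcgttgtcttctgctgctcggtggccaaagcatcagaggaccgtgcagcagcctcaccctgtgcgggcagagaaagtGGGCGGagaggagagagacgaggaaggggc

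The upstream region of Pgrmc1 held 4 GC boxes and 18 CpG dinucleotides, and 78.3% of 32851 mouse promoters in the table hold fewer CpG. The regions shown for Esr1 and Fshr held 4 CpG each, where 37.8% hold fewer, and those of Esr2 and Ptgfr held 12 and 10. Esr2 and Fshr each had 1 E-box, a motif found in 6.02% of all these promoters. Ptgfr had 1 GC box, as do 32.7% of promoters, and 1 half-site, as do 14.0%; Esr1 had none of the 4 motifs, of which the TATA box occurs in 12.4%. A match describes these letters only.

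Esr1, the estrogen receptor alpha, had the smallest p-value of the receptors and read higher in ALDH-positive cells of each pool. Its brightest probe set, 1460591_at, read 3.05, 2.13 and 3.29 in the ALDH-negative cells of pools 1 to 3, and 4.00, 4.73 and 4.73 in the ALDH-positive cells. The highest ALDH-negative value lay below the lowest ALDH-positive one, so the groups did not overlap, as for 3.49% of all tested probe sets in this direction and 3.4% in the other. The pool differences were 0.95, 2.60 and 1.44, with a mean of 1.67 (limma SE 0.68, n = 3 pools, 95% interval 0.08 to 3.26), and without pool 2 the mean was 1.20. The difference did not pass after adjustment over all 27022 probe sets tested (limma unadjusted p = 0.0423, adjusted p = 0.895). By rank within its array the probe set stood at percentiles 48.7, 31.4 and 52.5 among all probe sets in ALDH-negative cells against 62.5, 71.5 and 71.6 in ALDH-positive cells. It was above background on 2 of the 3 ALDH-negative arrays, just over the levels of 2.65 and 3.07 in pools 1 and 3, and its 2.13 in pool 2 lay under that array's level of 5.91. The size of the difference thus rests on ALDH-negative signals near or under background, and no fold is given.

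Esr1 had 2 other probe sets, both too dim to be tested. Probe set 1435663_at read higher in ALDH-positive cells in each pool, by 0.39, 0.69 and 0.53, but exceeded background on no array. Probe set 1421244_at differed by -0.23, 1.34 and 0.39, and passed background on the ALDH-negative array of pool 1 alone. Of the 3 Esr1 probe sets, 2 thus read higher in 3 of 3 pools, of which 1 was above background; in the values as deposited, without quantile normalization, 1435663_at differed by -0.02 in pool 2.

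Esr2, the estrogen receptor beta and in the ovary chiefly a receptor of granulosa cells, showed no such separation. Its single probe set, 1426103_a_at, read 4.02, 5.84 and 4.36 in ALDH-negative cells against 3.99, 3.54 and 4.06 in ALDH-positive cells. The fractions of pools 1 and 3 were nearly level, and the one high value came from the array that stood apart, where it was nonetheless below that array's background level of 5.91. The mean difference was -0.88 (limma SE 0.73, 95% interval -2.59 to 0.83, adjusted p = 0.895) and -0.17 without pool 2. The difference of Esr1 1460591_at exceeded that of Esr2 by 0.98, 4.90 and 1.74 in pools 1 to 3, with a mean of 2.54 (SD 2.08) and 1.36 without pool 2. The exact sign-flip permutation test gave p = 0.25 (2-sided), the smallest that 3 pools allow. With the dimmer Esr1 probe sets the same contrast was 0.43, 2.99 and 0.83 for 1435663_at (mean 1.42, 0.63 without pool 2, exact p = 0.25) and -0.20, 3.64 and 0.69 for 1421244_at (mean 1.38, 0.25 without pool 2, exact p = 0.5). In pool 2 neither gene was above background in ALDH-negative cells. Being taken within arrays, this contrast does not change with a shift of a whole array, but it does with other differences between arrays. As deposited, its mean for Esr1 1460591_at was 2.23.

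**Figure D3:**
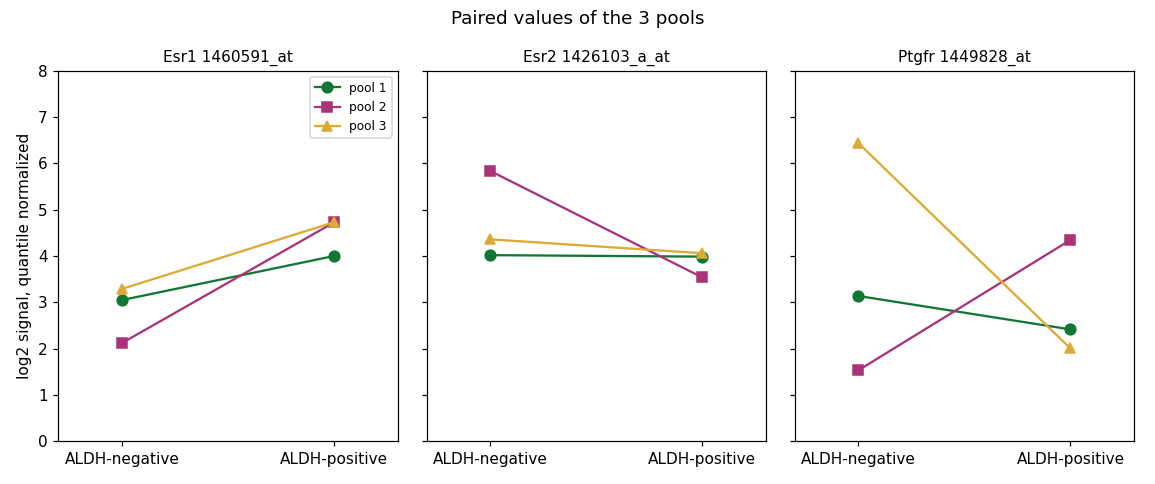
Log2 signal (vertical axis) of Esr1 1460591_at, Esr2 1426103_a_at and Ptgfr 1449828_at in the ALDH-negative and ALDH-positive cells of each pool, joined by a line for each of the 3 pools. All 3 lines of Esr1 go up, those of Esr2 are level or go down, and those of Ptgfr cross.

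Pgr, the progesterone receptor and itself a classical estrogen target, was not above background in either fraction. Its 3 probe sets, none bright enough to be tested, read between 1.01 and 2.92 on the 6 arrays. The highest of these values was on the ALDH-negative array of pool 2. Probe set 1455772_at read 1.20, 1.14 and 1.01 in ALDH-negative cells against 1.33, 1.39 and 1.37 in ALDH-positive cells, which did not overlap, but all these values lay under the background level, and as deposited the pool 2 difference was -0.37. No fold is given for signals of this kind.

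Pgrmc1, a haem-binding membrane protein linked to progesterone action and to sterol metabolism, was bright in both fractions. It read 8.06, 2.42 and 8.56 in ALDH-negative cells against 8.02, 7.53 and 8.78 in ALDH-positive cells. On 5 arrays it stood at or above percentile 94.7 of all probe sets, and on the array that stood apart at percentile 37.5. The pool differences were -0.04, 5.11 and 0.22, so that the mean of 1.76 (limma SE 1.07, adjusted p = 0.895) came from pool 2, and without it the mean was 0.09. In pools 1 and 3 the fractions therefore differed by no more than 0.22 in either direction.

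Nr3c1, the glucocorticoid receptor, was above background in both fractions, but its 6 probe sets did not share 1 direction. Probe set 1421867_at read 5.06, 3.64 and 5.57 in ALDH-negative cells against 5.41, 5.39 and 6.40 in ALDH-positive cells, higher in each pool by 0.35, 1.74 and 0.83. Its mean difference was 0.98 (limma SE 0.67, adjusted p = 0.895) and 0.59 without pool 2. Probe set 1460303_at gave -0.04, 3.49 and 0.54, and 1421866_at gave -0.14, 1.27 and -2.10. Probe set 1431378_at was lower in ALDH-positive cells of each pool, with -0.06, -1.79 and -0.41, but it exceeded background on no array, and as deposited its pool 1 difference was 0.05. The sixth, 1453860_s_at, was too dim to be tested and differed by -0.66, 0.77 and 0.47. Over all 6 probe sets the mean difference of the gene was 0.04, and -0.15 without pool 2, against -1.17 for the probe set of highest mean.

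That probe set, 1457635_s_at, separated arrays in another way. It read 4.33, 6.72 and 7.12 in ALDH-negative cells against 4.09, 3.73 and 6.83 in ALDH-positive cells, high on both arrays of pool 3 and on the ALDH-negative array of pool 2. Its pool differences were -0.23, -2.99 and -0.28, with a mean of -1.17 (limma SE 0.79, adjusted p = 0.895) and -0.26 without pool 2. The same 3 arrays had the largest difference between the 3′ and 5′ control probe sets of Gapdh, a measure of how far the labelled cDNA reaches from the 3′ end. That difference was 0.90, 2.15 and 3.59 on the ALDH-negative and 1.00, 1.14 and 5.30 on the ALDH-positive arrays of pools 1 to 3, on the scale of the deposited values. For Actb it was -0.10, 0.22 and 0.98 against -0.28, -0.22 and 0.78. The part of these differences in the signal of this probe set was not tested. The genes of closest profile over the 5 arrays other than the ALDH-negative array of pool 2, out of 12813 compared, were the transporter gene Abcb1a, the fucokinase gene Fcsk and the helicase gene Rtel1. Their profiles, each centred on its own mean, differed from that of Nr3c1 by a root mean square of 0.12, 0.16 and 0.17.

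**Figure D4:**
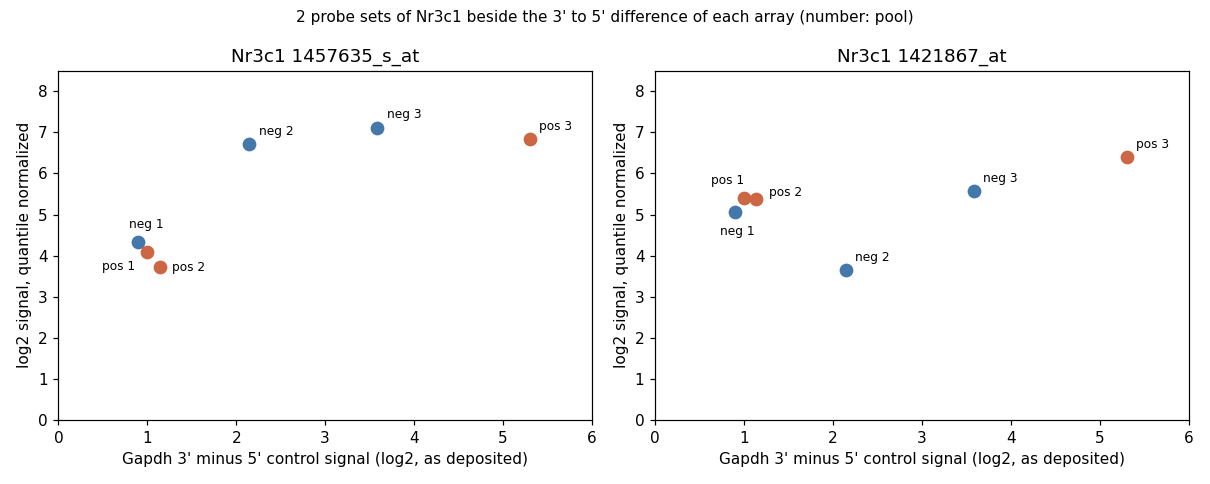
Log2 signal of 2 Nr3c1 probe sets (vertical axes) against the 3′ minus 5′ control signal of Gapdh (horizontal axes) on each of the 6 arrays, ALDH-negative in blue and ALDH-positive in orange, numbered by pool. Probe set 1457635_s_at reads 6.72 to 7.12 on the 3 arrays of largest Gapdh difference and 3.73 to 4.33 on the others, while 1421867_at shows its lowest value, 3.64, and its 2 highest, 5.57 and 6.40, on these 3 arrays.

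Fshr, the receptor that makes granulosa cells respond to follicle-stimulating hormone, read 3.19, 1.11 and 1.90 in ALDH-negative cells against 2.05, 2.13 and 2.28 in ALDH-positive cells. It exceeded background on the ALDH-negative array of pool 1 alone, where the level was 2.65, and was too dim to be tested. Its differences of -1.14, 1.02 and 0.39 had no common sign. Some other granulosa genes were well above background beside it. Inha, an inhibin subunit, read 9.95, 4.50 and 7.78 in ALDH-negative cells against 9.06, 8.36 and 8.52 in ALDH-positive cells. Its 4.50 in pool 2 lay under that array's level of 5.91. On the other arrays Amh, the gene of anti-Müllerian hormone, read only 3.27 to 3.83, near their levels of 2.65 to 3.42. The granulosa gene Cyp19a1 had no probe set listed. Of the 11 listed granulosa genes with a probe set, Fshr among them, 11, 2 and 9 were above background on the ALDH-negative and 10, 10 and 9 on the ALDH-positive arrays.

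Ptgfr, the prostaglandin F2 alpha receptor through which the corpus luteum is made to regress, differed in sign from pool to pool. Probe set 1449828_at read 3.14, 1.54 and 6.44 in ALDH-negative cells against 2.42, 4.35 and 2.01 in ALDH-positive cells, with pool differences of -0.72, 2.81 and -4.43. It was highest in the ALDH-negative cells of pool 3 and next in the ALDH-positive cells of pool 2. The mean was -0.78 (limma SE 1.26, adjusted p = 0.903), and it was -2.58 without pool 2 but 1.05 without pool 3. Probe set 1420349_at, with -1.24, 2.01 and -1.22, had the same signs in each pool and a mean of -0.15 (limma SE 0.84, adjusted p = 0.972), which was -1.23 without pool 2. On the ALDH-negative array of pool 3, 3 of the 5 Ptgfr probe sets were above background, including 1446331_at, which read 4.21 there and 0.98 to 2.52 on the other arrays. Beside it, Akr1c18, which inactivates progesterone, read 5.98, 3.65 and 6.29 in ALDH-negative cells against 5.02, 7.17 and 7.27 in ALDH-positive cells, and the mean level of the 8 listed theca, interstitial and luteal genes, Ptgfr among them, was 7.54, 4.28 and 7.74 against 6.97, 7.50 and 6.97. The genes of closest profile over the same 5 arrays were Rims2, which encodes a protein of the presynaptic active zone, Hdc, which makes histamine, and the lipid-binding protein gene Osbpl6, at root mean squares of 0.37, 0.45 and 0.53.

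Of the 20 receptor probe sets, 10 from 5 genes were bright enough to be tested, and no probe set passed the adjusted threshold of 0.05. The same was true of all 27022 tested (0% called). At an unadjusted limma p under 0.05 there was 1 of the 10, that of Esr1, against 2.45% of all probe sets. By sign, 4 of the 10 lay higher and 6 lower in the mean, while 48.2% of all probe sets lay higher, and without pool 2 the 10 again divided into 4 and 6, with 51.2% of all higher. In all 3 pools 2 lay higher and 3 lower, where 11.5% and 10.8% of all probe sets do so. The 2 higher were of Esr1 and Nr3c1, and the 3 lower were that of Esr2 and Nr3c1 1457635_s_at and 1431378_at. Probe sets of the same gene do not count as separate receptors. With array weights 3 of the 10 were called, 1 higher and 2 lower, against 10.9% of all probe sets, 5.47% higher and 5.46% lower; those weights lean on pool 3. Without pool 1 none of the 10 was called, and 0.0259% of all were. The median difference of the 10 was -0.24, and -0.20 without pool 2, and that of all probe sets was -0.04 and 0.01. A p-value that misses the threshold does not show that the fractions were alike, and the 95% intervals of the receptors were wide, reaching from -0.75 to 4.27 for Pgrmc1 and from -3.72 to 2.16 for Ptgfr.

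**Figure D5:**
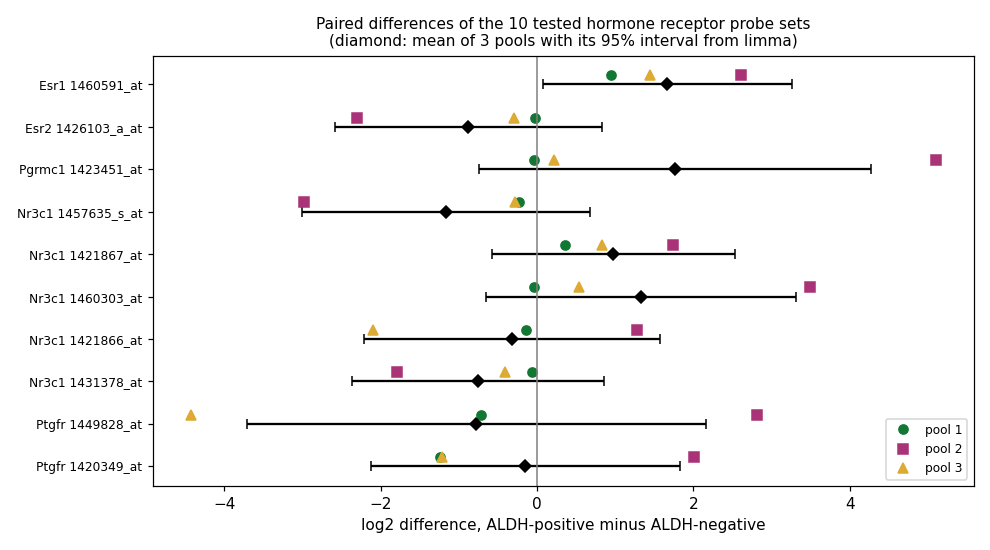
Log2 difference, ALDH-positive minus ALDH-negative (horizontal axis), of the 10 tested receptor probe sets (vertical axis); coloured symbols are the 3 pools, diamonds the mean and bars its 95% interval from limma. The interval of Esr1 1460591_at, 0.08 to 3.26, lies above 0 before any adjustment and the others span 0.

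Around the receptors, 106 other genes of hormone response were listed in 8 groups, of which 83 were bright enough to be tested. None passed the adjusted threshold (0% of all probe sets did), and 2 had an unadjusted limma p under 0.05, both higher in ALDH-positive cells. Of all tested probe sets 2.45% were under that p, 2.04% of them higher and 0.403% lower, so 2 of 83 is near the share over all. In the mean 50 lay higher and 33 lower, but without pool 2 36 of the 83 lay higher. Of all probe sets 48.2% lay higher, and 51.2% without pool 2.

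The first of these 2 was Ptgs2, the inducible cyclooxygenase that starts prostaglandin synthesis. It read 4.31, 1.24 and 3.72 in ALDH-negative cells against 5.24, 5.67 and 6.48 in ALDH-positive cells, with no overlap. The 1.24 in pool 2 lay under that array's background level of 5.91. Its mean difference was 2.70 (limma SE 0.82, unadjusted p = 0.0122, adjusted p = 0.895) and 1.84 without pool 2. Among the 13 tested genes of prostaglandin receptors and synthesis, Ptgfr included, 8 lay higher and 5 lower (median 0.40, and 0.24 without pool 2). The prostaglandin E synthase gene Ptges differed by 1.64 (0.43 without pool 2) and the phospholipase gene Plcb3 by -0.91 (-0.34 without pool 2).

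The second was Rapgef3, which encodes Epac1, a sensor of cyclic AMP. It read 2.61, 5.32 and 5.20 in ALDH-negative cells against 6.12, 6.64 and 6.98 in ALDH-positive cells, also with no overlap. The ALDH-negative values of pools 1 and 2 lay under the background levels of those arrays, 2.65 and 5.91. The size of the Rapgef3 difference thus rests in part on signals under background, also without pool 2. Its mean difference was 2.20 (limma SE 0.72, unadjusted p = 0.0171, adjusted p = 0.895) and 2.64 without pool 2. Of the 17 tested genes of gonadotropin receptor signalling through cyclic AMP, 10 lay higher and 7 lower (median 0.17, and 0.01 without pool 2). Next by p-value were the protein kinase A regulatory subunits Prkar2a, with 1.91, and Prkar1a, with 1.48, and 0.44 and 0.57 without pool 2.

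Among genes that respond to estrogen and progesterone, Greb1, a classical estrogen target, read 9.44, 3.26 and 9.32 in ALDH-negative cells against 8.21, 8.21 and 8.40 in ALDH-positive cells, with differences of -1.23 and -0.92 in pools 1 and 3. Its mean over 3 pools was 0.93 and without pool 2 -1.08. The protease gene Ctsl differed by 1.85 (0.24 without pool 2) and the transcriptional coregulator gene Cited2 by 2.10 (-0.38 without pool 2). The 7 tested genes had a median of 0.47, and of -0.38 without pool 2.

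The glucocorticoid-responsive genes, targets of Nr3c1, were above background in both fractions, with 10, 3 and 10 of 10 on the ALDH-negative and 10, 10 and 9 on the ALDH-positive arrays of pools 1 to 3. Their median difference was 0.72, and -0.34 without pool 2, when 3 of 10 lay higher. Klf9, a transcription factor induced by glucocorticoids, differed by 0.14, 4.88 and -0.15, and the metallothionein gene Mt1 by -0.23, 5.90 and -0.19. Errfi1, a feedback inhibitor of the EGF receptor, gave 0.38, 2.24 and -0.02. The 12 tested chaperones and coregulators had a median of 0.47, and -0.15 without pool 2. The steroid receptor coactivator Ncoa1 lay lower in each pool, with differences of -0.70, -1.28 and -1.09 (limma adjusted p = 0.895). The chaperones Hsp90aa1 and Fkbp4 had means of 1.70 and 1.89, which were 0.07 and -0.58 without pool 2.

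Other steroid and nuclear receptors gave a median of -0.50 over 11 tested genes, and -0.06 without pool 2. The smallest p-values there were of the membrane progestin receptor family members Paqr6 (-1.17) and Paqr5 (-1.01) and of the orphan receptor Esrra (-0.90), with -0.01, 0.15 and 0.06 without pool 2. Of the 16 with a probe set, the mineralocorticoid receptor Nr3c2, Gper1, Paqr9, Esrrb and Esrrg exceeded background on no array. In prolactin receptor signalling, 4 of 7 tested genes lay higher and 3 lower, and without pool 2 none lay higher (median -0.29). Cish, a feedback inhibitor induced by this pathway, lay lower in each pool, with differences of -0.18, -1.25 and -1.58, while Jak2, its kinase, differed by 0.75 and the inhibitor Socs3 by -0.57 in the mean, and by -0.11 and -0.12 without pool 2. Among other ovarian peptide receptors, of which 9 were tested (median -0.18, and -0.20 without pool 2), Amhr2, the receptor for anti-Müllerian hormone, read 7.57, 6.12 and 8.70 in ALDH-negative cells against 7.31, 7.74 and 9.11 in ALDH-positive cells and was above background on all 6 arrays. Igf1r, the receptor for insulin-like growth factor 1, differed by -0.89 and the kisspeptin receptor Kiss1r by -1.13, and by -1.04 and 0.16 without pool 2.

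Markers of some cell types, the surface epithelium itself among them, also read higher in the fraction in which Esr1 read higher. The 12 genes of surface epithelium and mesothelium were all higher in ALDH-positive cells in the mean (median 3.52, and 3.76 without pool 2), and their mean level was 4.18 to 4.38 on the ALDH-negative and 7.51 to 7.87 on the ALDH-positive arrays. The 7 stroma genes had mean levels of 3.67 to 4.84 and of 5.46 to 5.77. Of these, Lum was above background on no array. The 6 smooth muscle genes, among which Cnn1 was above background on no array, had 3.91 to 5.03 and 5.22 to 6.02. Of the 5 tested, Acta2, Tagln and Myl9 lay higher in the mean, by 3.59, 2.94 and 2.62 (3.13, 2.95 and 2.18 without pool 2). The other 2 lay lower, with -1.05 for Myh11 and -0.33 for Des. Without pool 2 all 5 lay higher, though Myh11 only by 0.07, from differences of 1.48 in pool 1 and -1.33 in pool 3. The part of these cell types in the differences of Esr1, Ptgs2 and Rapgef3 was not tested. Markers of leukocytes (mean level 2.71 to 4.39 in ALDH-negative cells against 2.48 to 3.70 in ALDH-positive cells) and of endothelium (2.84 to 3.67 and 2.63 to 3.03) overlapped between the groups. Of the 7 leukocyte genes, 4, 2 and 4 were above background on the ALDH-negative and 4, 3 and 3 on the ALDH-positive arrays. For the 6 endothelial genes these numbers were 5, 1 and 2 against 2, 3 and 2. Cd3e of the leukocyte list and Eng of the endothelial list were above background on all 6 arrays. Cd3e read 7.72 on the ALDH-negative array of pool 2 and 2.88 to 3.75 on the others, near their levels of 2.65 to 3.42. Csf1r, a leukocyte marker, read 4.96, 3.05 and 8.18 in ALDH-negative cells against 4.49, 2.76 and 8.06 in ALDH-positive cells. Ptprc and Adgre1 of the leukocyte list and Tek of the endothelial list were above background on no array. Of the 6 oocyte genes, 5 were above background on no array and Gdf9 on 2. The erythroid genes Hba-a1 and Alas2 and the oviduct genes Foxj1 and Pax8 were above it on no array. The other oviduct gene, Ovgp1, passed only on the ALDH-positive array of pool 2, at 4.74 against 1.20 to 2.60 elsewhere. None of these lists had a tested gene except the oocyte list. Its Gdf9 differed by 0.16, -1.63 and 0.52 in pools 1 to 3, with a mean of -0.31, and of 0.34 without pool 2.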

How the data were processed

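One value per probe set was used, for 45101 probe sets on 6 arrays. The deposited values, from 0.035 to 13.05, were taken as log2 signal from their range. How the authors summarised, background-corrected and normalized them is not given in the sources used here, so the centring stays unknown; array medians ran from 2.99 to 3.45. Per the labels' protocols, cDNA was amplified from total RNA, and the series design names a paired analysis of the pools. Here 64 control probe sets were removed and the arrays quantile normalized. Names came from GEO's platform annotation, checked by Entrez identifier against RefSeq (GRCm38.p6): 34945 probe sets had 1 symbol, 932 several and 9160 none. The lower 40% by mean (under 2.73) were not tested.

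Differences were fitted in limma 3.58.1 (R 4.3.3), blocking on the pool, which is the replicate number of the titles; p-values were adjusted by Benjamini-Hochberg over 27022 probe sets. The code of the fit was tested on simulated data. These had the same spread on every array, with none like the ALDH-negative array of pool 2. They do not show how the fit performs on the present arrays. Deviations from the group mean correlated between same-pool arrays at 0.38, -0.19 and 0.35, against up to 0.42 between pools. With separate pools of mice, p-values rest on the spread of 3 pools, and the number of arrays limits precision. In limma the variance of each probe set is drawn toward a value shared by all tested probe sets. SE, intervals and p-values thus do not measure the pool spread of a probe set alone. For Ptgfr 1449828_at the SD of the pool differences was 3.62 and the limma SE 1.26. In lists the probe set of highest mean stood for a gene. The text names all receptors, the 3 tested genes of smallest p in each pathway list, genes among the 3 of highest mean or never above background in the marker lists, and the 3 closest profiles to a receptor ranging over at least 2 log2 units. Akr1c18, Amh, Myh11, Des and the 5 other steroid and nuclear receptors above background on no array were named after their values were seen. The members, lists and tests were chosen with earlier results of these data known.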

Additional observations from a re-analysis of the deposited data

How the results depend on the processing

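The count of all probe sets called was 0 in the values as deposited, in median-centred arrays, without a filter on low values, with the lower 60% removed, with robust eBayes and without the replicate block, and the count of receptor probe sets called was 0 in the same fits; at an unadjusted p under 0.05 these fits held 412 to 910 probe sets, and 661 as reported. The replicate block changed no call: without it 542 were under that p. Leaving out a pool gave 0 to 7 calls over all probe sets, the 7 without pool 1, and 0 among receptors. With array weights, which came to 1.30, 0.158 and 4.87 for pools 1 to 3 and so lean on pool 3, 2953 were called (10.9% of all), and 3 of the 10 receptor probe sets, which were Esr1 1460591_at (1.37, limma adjusted p = 0.0243), Nr3c1 1421866_at (-1.61, adjusted p = 0.0214) and Ptgfr 1449828_at (-3.49, adjusted p = 0.00160). Over the other alternatives their adjusted p reached up to 1.00. The cause of the weighted calls beyond those weights was not tested. Of 105 comparisons of a receptor probe set with an alternative, 96 kept direction and call. Leaving out each pool in turn, Nr3c1 1421866_at ran from -1.12 to 0.57, Ptgfr 1449828_at from -2.58 to 1.05 and Ptgfr 1420349_at from -1.23 to 0.40; the first and second turned positive without pool 3, and the last without pool 3 (0.38) and without pool 1. The signs of Nr3c1 1460303_at (-0.13) and Pgrmc1 (-0.20) turned in an unblocked fit with 5 arrays, lacking that of the ALDH-negative cells of pool 2, which was added once the data had been seen. That fit called 0 probe sets, with 632 at an unadjusted p under 0.05. Esr1 1460591_at stayed positive in all 10 alternatives that tested it, at 1.20 to 2.02. Against the 99th percentile of the nasal receptors, the receptor genes above background numbered 3 on the ALDH-negative array of pool 1 and 2 on the ALDH-positive array of pool 3, and 0 on the ALDH-negative array of pool 2, where the 90th percentile gave 2 and the 40th percentile of all probe sets 3. Signal near background limits Esr1 in ALDH-negative cells, Fshr, Ptgfr and Pgr.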
